A study of Mus musculus with 3 samples.

Results

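The genes described here encode TREM receptors, the ITAM adaptors they signal through, a kinase that binds those adaptors, and inhibitory receptors and signalling proteins of myeloid cells. The members were Trem1, Trem2, Nfam1, Tyrobp, Fcer1g, Syk, Vsir, Pirb, Dok3 and Inpp5d, 10 genes of the 18820 with a probe set of their own, and each was read by 1 probe set. They were named from the platform annotation and had been chosen with the values on these arrays in view, so that their values are a description without a test. All 10 passed the filter on low values, which kept 9410 genes with an average log2 value no lower than that of the median gene, 4.14. The lowest value of any member, 4.57, also lay above that median.

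The samples were cultures of RAW264.7, a mouse macrophage line, each given a single fatty acid at 500 µM for 6 hours, carried by serum albumin at 2 fatty acids per albumin. There were 3 arrays, 1 each for oleate (cis monounsaturated), elaidate (its trans isomer) and palmitate (saturated and shorter). The design asks how a trans fatty acid compares with a cis and a saturated one. No culture without fatty acid and no replicate array was analysed, so each difference is between a pair of arrays and has no replicate check, and the 3 comparisons share arrays. RNA came from whole cultures, in which fewer cells with a transcript and less of it per cell cannot be told apart.

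TREM receptors are surface proteins of myeloid cells with short tails that cannot signal alone. They pair in the membrane with Tyrobp, also called DAP12, whose tail carries an immunoreceptor tyrosine-based activation motif, or ITAM; Fcer1g, the common gamma chain, does the same for Fc receptors and several lectin receptors. Src family kinases phosphorylate the ITAM, Syk docks on it and passes the signal to phospholipase C, PI 3-kinase and Card9, and receptors, adaptors and phosphatases such as Pirb, Dok3 and Inpp5d dampen it. In macrophages Trem1 is known for amplifying inflammatory responses, and Trem2 for lipid sensing, phagocytosis and the restraint of inflammation.

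Sequences upstream of the annotated starts are shown for the 4 members that differed at least 2-fold between palmitate and oleate, and for Trem2, whose values hardly differed, so that a reader can set them beside the values. Each is the 250 bases before a transcript start in RefSeq, build GRCm38.p6, written 5′ to 3′ on the strand of the gene. Capitals mark GAGGAA, the core bound by the macrophage factor PU.1, and GGAAGT, a core shared by ETS factors, on either strand.
Trem1 promoter, chr17:48232489-48232738, plus strand: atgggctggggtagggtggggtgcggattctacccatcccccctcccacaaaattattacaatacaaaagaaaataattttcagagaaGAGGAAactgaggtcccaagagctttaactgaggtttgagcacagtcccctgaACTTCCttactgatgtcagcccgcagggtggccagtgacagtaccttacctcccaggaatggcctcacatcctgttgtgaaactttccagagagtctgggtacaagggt
Vsir promoter, chr10:60346601-60346850, plus strand: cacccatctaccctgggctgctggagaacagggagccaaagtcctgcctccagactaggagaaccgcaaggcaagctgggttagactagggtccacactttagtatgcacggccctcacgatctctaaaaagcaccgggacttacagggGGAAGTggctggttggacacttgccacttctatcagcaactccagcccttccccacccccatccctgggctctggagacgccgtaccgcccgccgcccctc
Nfam1 promoter, chr15:83033398-83033647, minus strand: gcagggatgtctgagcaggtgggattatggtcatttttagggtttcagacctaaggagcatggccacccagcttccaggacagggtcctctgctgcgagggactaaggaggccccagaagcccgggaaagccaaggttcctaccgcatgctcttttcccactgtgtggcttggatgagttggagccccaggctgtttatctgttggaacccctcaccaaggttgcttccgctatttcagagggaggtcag
Dok3 promoter, chr13:55528539-55528788, minus strand: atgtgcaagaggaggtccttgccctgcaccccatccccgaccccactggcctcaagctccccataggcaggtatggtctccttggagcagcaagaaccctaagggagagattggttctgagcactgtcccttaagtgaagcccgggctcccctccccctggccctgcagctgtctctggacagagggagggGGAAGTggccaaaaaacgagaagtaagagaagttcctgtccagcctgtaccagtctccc
Trem2 promoter, chr17:48346151-48346400, plus strand: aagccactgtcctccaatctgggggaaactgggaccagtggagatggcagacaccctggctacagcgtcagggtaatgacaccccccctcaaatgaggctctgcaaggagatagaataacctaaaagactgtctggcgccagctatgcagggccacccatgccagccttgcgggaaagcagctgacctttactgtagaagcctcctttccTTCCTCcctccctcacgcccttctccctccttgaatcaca

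RefSeq promoter windows were matched for 9 of the 10 members, 12 windows in all because Nfam1 and Syk have several starts. The motif GGAAGT lay in 5 of the 12 windows, those of Trem1, Vsir, Dok3, Pirb and Inpp5d, against 19.7% of all 32851 windows of the same length. It began 109 bases before the start in Trem1, 101 in Vsir and 59 in Dok3. GAGGAA also lay in 5 of the 12, against 23.3% of all windows, and the 5 included Trem2 and the second Syk start. Both motifs were present in the windows of Trem1, Pirb and Inpp5d, and in Pirb and Inpp5d a match of one overlaps a match of the other. The AP-1-type motif TGANTCA occurred in 2 of the 12 windows (Trem2 and the third Nfam1 start; 6.75% of all windows), and the C/EBP-type motif TTGCNNCAA in 1 (Pirb; 1.74%). Nfam1 had neither capitalised motif at any of its 3 starts. Matches are letters in these windows and not binding sites.

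**Figure D1:**
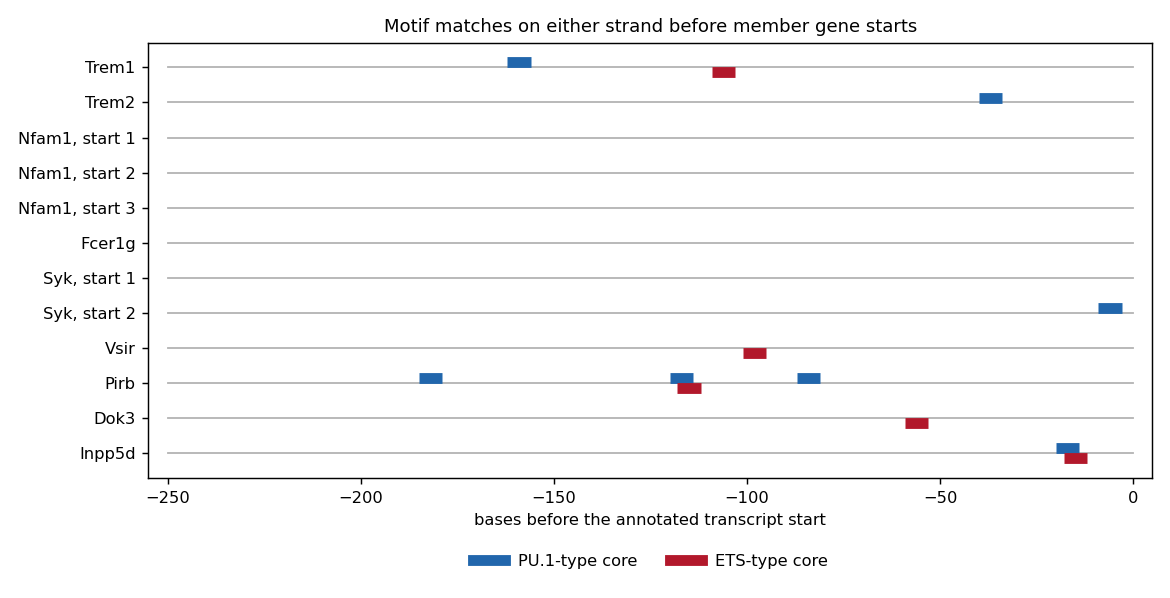
Matches to GAGGAA (blue) and GGAAGT (red) on either strand in the 250 bases before each annotated start (horizontal axis, bases before the start) for the 9 members with a RefSeq promoter; each grey line is 1 window. Red matches are seen in Trem1, Vsir, Pirb, Dok3 and Inpp5d, and none of the 3 Nfam1 windows holds a match.

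Across the members, an activating receptor, an ITAM receptor, an inhibitory receptor and an inhibitory adaptor were much lower on the palmitate array. Both adaptor chains and Trem2 differed little. Syk had an equal deposited value on all 3 arrays, which is not read as a measured absence of difference. Relative to oleate, 4 members were at least 2-fold lower on the palmitate array (Trem1, Vsir, Nfam1 and Dok3) and none was 2-fold higher, where 1.22% of all genes past the filter were 2-fold lower and 1.65% 2-fold higher. Relative to elaidate, 3 members were 2-fold lower (Trem1, Vsir and Nfam1), where 0.871% of all genes were 2-fold lower and 0.978% 2-fold higher. Between elaidate and oleate no member reached 2-fold, and of all genes 0% were 2-fold lower and 0.106% 2-fold higher. The members were chosen on these values, so nothing is read from those counts.

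**Figure D2:**
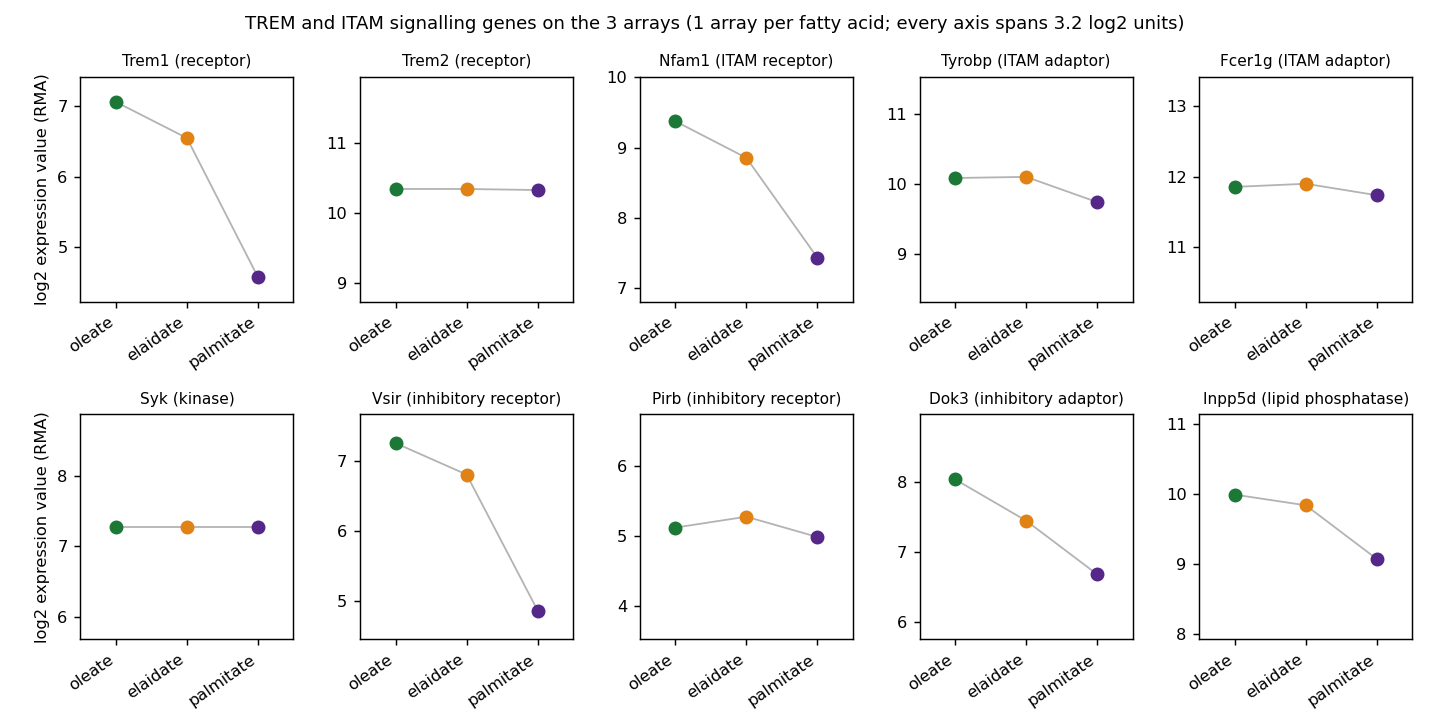
Deposited log2 expression values (vertical axis) of the 10 members on the oleate, elaidate and palmitate arrays, 1 point per array and no error bars because there is 1 array per fatty acid; every vertical axis spans the same range. Trem1 drops from 7.06 to 4.57 and Vsir from 7.25 to 4.87, while Syk stands at 7.28 on every array.

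Trem1 and Trem2, members of one gene cluster and receptor family, had different patterns. Trem1 had log2 values of 7.06 with oleate, 6.55 with elaidate and 4.57 with palmitate. Palmitate minus oleate was -2.49 log2 units, a 5.63-fold lower value, rank 2 from the lowest of 9410 genes, and 3.95-fold below elaidate. The elaidate value lay between the others, 1.43-fold below oleate, which is rank 11 from the lowest in that comparison. Trem2 had values of 10.34, 10.34 and 10.33 on the same arrays; oleate and elaidate were equal, and palmitate was 1.01-fold lower.

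The rest of the TREM cluster on mouse chromosome 17 did not follow Trem1. In the RefSeq gene order Trem3, Treml4, Treml2 and B430306N03Rik lie between Trem1 and Trem2, and Treml1 follows Trem2. For palmitate minus oleate Trem3 stood at -0.16, Treml4 at 0.16, Treml2 at -0.23, B430306N03Rik at 0.12 and Treml1 was equal on all arrays. With oleate Treml1 stood at 4.62, Treml2 at 5.35 and Trem3 at 5.54, low values that leave little room for a fall like that of Trem1. Treml4 at 6.12 and B430306N03Rik at 7.40 stood higher. Of the cluster genes named here, Trem1 alone passed 2-fold in any comparison. The gene just outside on the Trem1 side, A530064D06Rik, stood at 0.06.

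Nfam1 encodes a receptor that carries its own ITAM and is known to activate NFAT. Its log2 values were 9.38 with oleate, 8.86 with elaidate and 7.43 with palmitate, so that palmitate was 3.85-fold below oleate and 2.68-fold below elaidate. Elaidate was 1.43-fold below oleate, rank 10 from the lowest of all genes.

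The adaptor genes differed far less than the receptors Trem1 and Nfam1. Tyrobp had values of 10.09, 10.10 and 9.74 on the oleate, elaidate and palmitate arrays, a palmitate value 1.27-fold below oleate and 1.28-fold below elaidate. Fcer1g had values of 11.86, 11.90 and 11.74, or 1.09-fold and 1.12-fold lower with palmitate. For both adaptors elaidate stood highest, by 0.02 and 0.04 log2 units over oleate. Syk, the kinase that binds phosphorylated ITAMs, was 7.28 on all 3 arrays, equal to within 1e-06. Such equality was common in the deposited values: 27.5% of all genes past the filter were equal on all 3 arrays. An equal value, for Syk or any other gene named here, is therefore not read as a measured absence of difference. After centring or cyclic loess of the arrays Syk differed by at most 0.04 in size, on either side of 0 for palmitate minus oleate.

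Of the inhibitory receptors among the members, Vsir differed much between arrays and Pirb, at low values, differed little. Vsir encodes VISTA, an inhibitory immunoglobulin receptor of the B7 family that is abundant on myeloid cells. Its values were 7.25 with oleate, 6.80 with elaidate and 4.87 with palmitate, and palmitate was 5.22-fold below oleate, rank 4 from the lowest, and 3.83-fold below elaidate. Its elaidate value was 1.36-fold below oleate. Pirb encodes the paired immunoglobulin-like receptor B, which recruits phosphatases through its tail. It had values of 5.12, 5.28 and 4.99, with elaidate highest and palmitate 1.10-fold below oleate. Such low values leave little room for a fall like that of Vsir. Close copies of Pirb exist in the Pira genes, so which of them this probe set reads is uncertain.

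Of the intracellular inhibitors, Dok3 showed the largest member difference between elaidate and oleate. Dok3 is an adaptor that binds Inpp5d and Grb2. Its values were 8.03 with oleate, 7.44 with elaidate and 6.68 with palmitate. Elaidate minus oleate was -0.59 log2 units, rank 6 from the lowest of 9410 genes, and palmitate was 2.55-fold below oleate and 1.70-fold below elaidate. Inpp5d encodes SHIP1, the phosphatase that removes a phosphate from the product of PI 3-kinase. It had values of 9.99, 9.84 and 9.07, so that palmitate was 1.89-fold below oleate, short of 2-fold, and 1.70-fold below elaidate.

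Dok3 and Inpp5d had close palmitate minus elaidate differences, -0.76 and -0.77, and elaidate minus oleate differences of -0.59 and -0.15. Oleate, elaidate and palmitate held the highest, middle and lowest value in turn for Trem1, Nfam1, Vsir, Dok3 and Inpp5d. Elaidate was highest for Tyrobp, Fcer1g and Pirb. Palmitate held the lowest value for every member but Syk: 9 of 10 members were lower with palmitate than with oleate by any amount and Syk was equal, where 36.8% of all genes past the filter were lower, 30.9% higher and 32.3% equal. Against elaidate the same 9 were lower and Syk equal, where 37.9% of all genes were lower, 27.9% higher and 34.2% equal. Between elaidate and oleate 5 members were lower, 3 higher and 2 equal, against 24.3%, 31.5% and 44.1% of all genes. After centring or cyclic loess the 2 equal ones, Trem2 and Syk, were lower by at most 0.01. Because the members were chosen with these values in view, nothing is read from these counts of direction beside the shares of all genes.

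**Figure D3:**
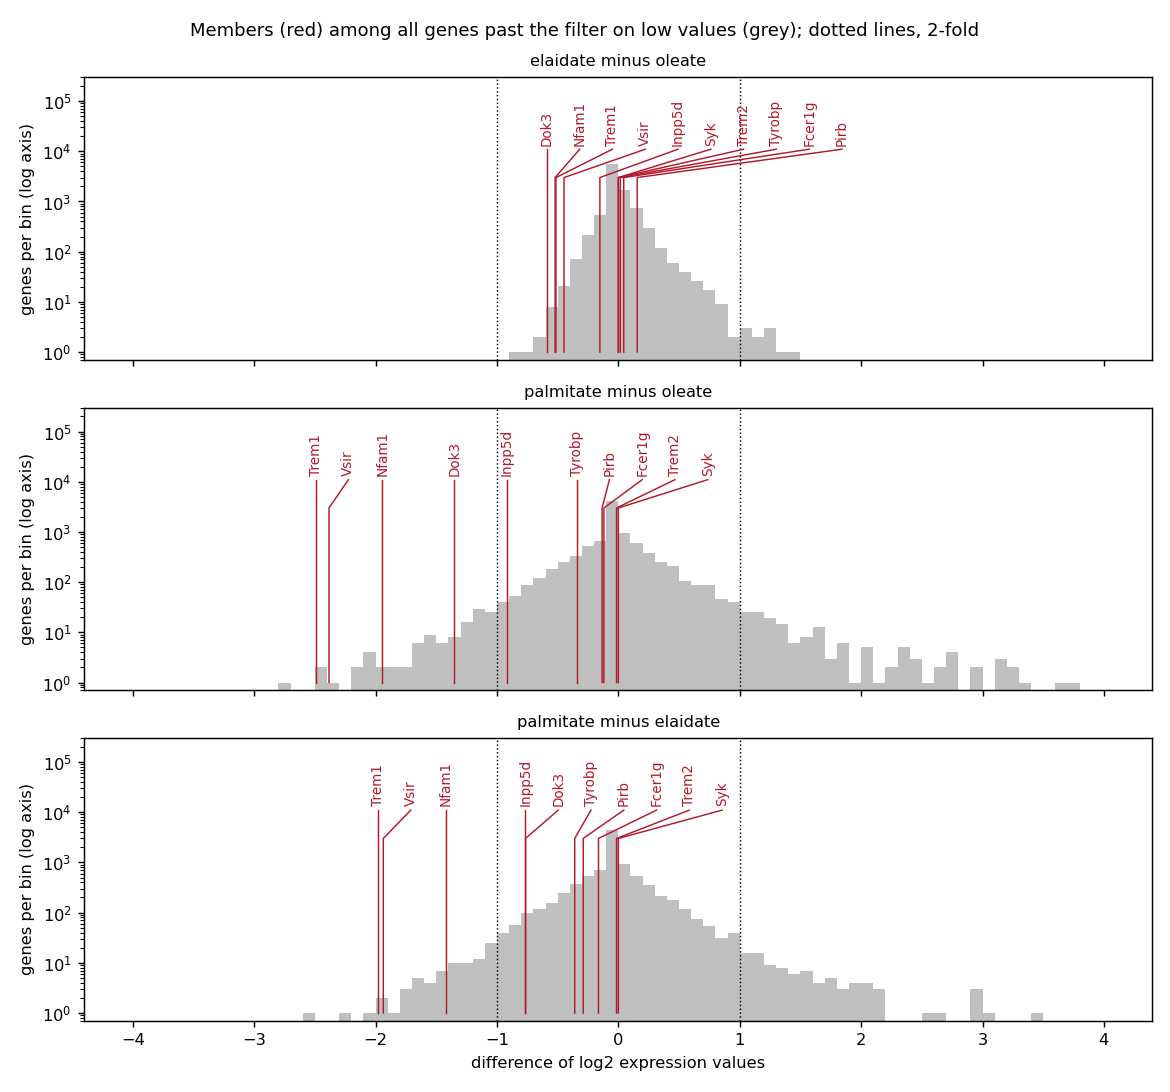
Differences of log2 values (horizontal axis) for all 9410 genes past the filter (grey histogram, log vertical axis, genes per bin) and for the 10 members (red lines) in the 3 comparisons; dotted lines mark 2-fold. Trem1, Vsir, Nfam1 and Dok3 lie left of the 2-fold line for palmitate minus oleate, and no member lies right of it in any comparison.

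Other genes of these pathways were grouped by role, without the members: 137 listed genes, of which 127 had a probe set of their own and 94 passed the filter. Palmitate was lower than oleate for 47 of the 94, higher for 27 and equal for 20; the median was -0.01, beside a median of 0 over all 9410 genes, and 36.8%, 30.9% and 32.3% of all genes were lower, higher and equal. At least 2-fold lower were 5 of the 94 and 2-fold higher was 1, against 1.22% and 1.65% of all genes. For palmitate minus elaidate 4 were 2-fold lower and 1 higher, against 0.871% and 0.978%. The lists were chosen with earlier results of these data known, so nothing is read from the list counts beside those shares. Elaidate was lower than oleate for 35, higher for 31 and equal for 28, never by 2-fold, and the median was 0, as over all genes.

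Among other activating and Fc receptor genes, none was 2-fold different. Of 9 other DAP12-paired and lectin receptors past the filter, 5 were lower than with oleate, 2 higher and 2 equal, at a median of -0.17. Pilrb1, an activating paired receptor with a close copy, Pilrb2, that its probe set may also read, stood at -0.75 and Clec5a, a DAP12 partner, at -0.46, while Clec4e, the lectin receptor Mincle that signals through Fcer1g, stood at 0.38. Of 5 Fc receptor genes 4 were lower and 1 was higher, at a median of -0.40, the value of Fcgrt, the neonatal Fc receptor, which does not use an ITAM chain. The activating Fcgr3 at -0.79 and Fcgr4 at -0.67 were lower, and Fcgr2b, the inhibitory Fc receptor, was the one that was higher, at 0.40. Of the 7 other genes grouped here with the ITAM adaptors and chains, Hcst alone passed the filter, and it was equal on all arrays. The grouping does not mean that the product of Hcst carries an ITAM.

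Among 6 other kinases past the filter 3 were lower with palmitate than with oleate, 2 higher and 1 equal, at a median of -0.19. Csk, which restrains Src family kinases, was lowest at -0.96, followed by Btk, a Tec family kinase, at -0.46, and Fyn stood at 0.44. Of 32 signal effectors 15 were lower, 12 higher and 5 equal, at a median of 0, yet 3 were 2-fold lower. Pik3cd, the leukocyte PI 3-kinase delta subunit, had values of 8.13 with oleate, 7.75 with elaidate and 6.50 with palmitate, 3.08-fold lower with palmitate than with oleate. Nfatc2, an NFAT transcription factor, had 7.85, 7.41 and 6.32, or 2.90-fold lower. Pik3cg, the gamma subunit, had 8.72, 8.58 and 7.71, or 2.01-fold lower. Rasgrp3, an activator of Ras, was the one effector with elaidate highest among those past 2-fold in a comparison, at 6.71, 7.30 and 6.17, or 2.19-fold lower with palmitate than with elaidate. The adaptor Gab2 went the other way, at 0.84 for palmitate minus oleate, as did Card9 at 0.62.

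The list of inhibitory receptor and checkpoint genes held the gene furthest above 0 for palmitate minus oleate. Cd274 encodes PD-L1, a checkpoint ligand, and had values of 6.85 with oleate, 7.66 with elaidate and 9.47 with palmitate. It was 6.16-fold higher with palmitate than with oleate and 3.52-fold higher than with elaidate, the reverse order to Vsir. Of the 13 inhibitory receptor and checkpoint genes past the filter, Cd274 included and the members left out, 6 were lower, 5 higher and 2 equal for palmitate minus oleate, at a median of 0. Cd33, a siglec listed here with the inhibitory receptors, at -0.76 and Milr1, an inhibitory receptor also known as allergin, at -0.75 were the lowest. Lilrb4a, at 0.64, was the highest after Cd274. Of 17 other phosphatases and inhibitory adaptors 9 were lower, 3 higher and 5 equal, at a median of -0.01. Dok2, a relative of Dok3, was 2.24-fold lower with palmitate than with oleate and Ubash3b, a phosphatase that acts on Syk, 2.18-fold lower. Ptpn6, the phosphatase recruited by inhibitory receptors, stood at -0.66, while Dok1 was equal on all arrays. Among 8 ligand and sheddase genes 3 were lower, 2 higher and 3 equal, with Selplg, whose product can bind VISTA, at -0.85 and Adam10, a sheddase of Trem2, at -0.43. The Trem2 ligand genes Apoe and Clu were equal on all 3 arrays.

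**Figure D4:**
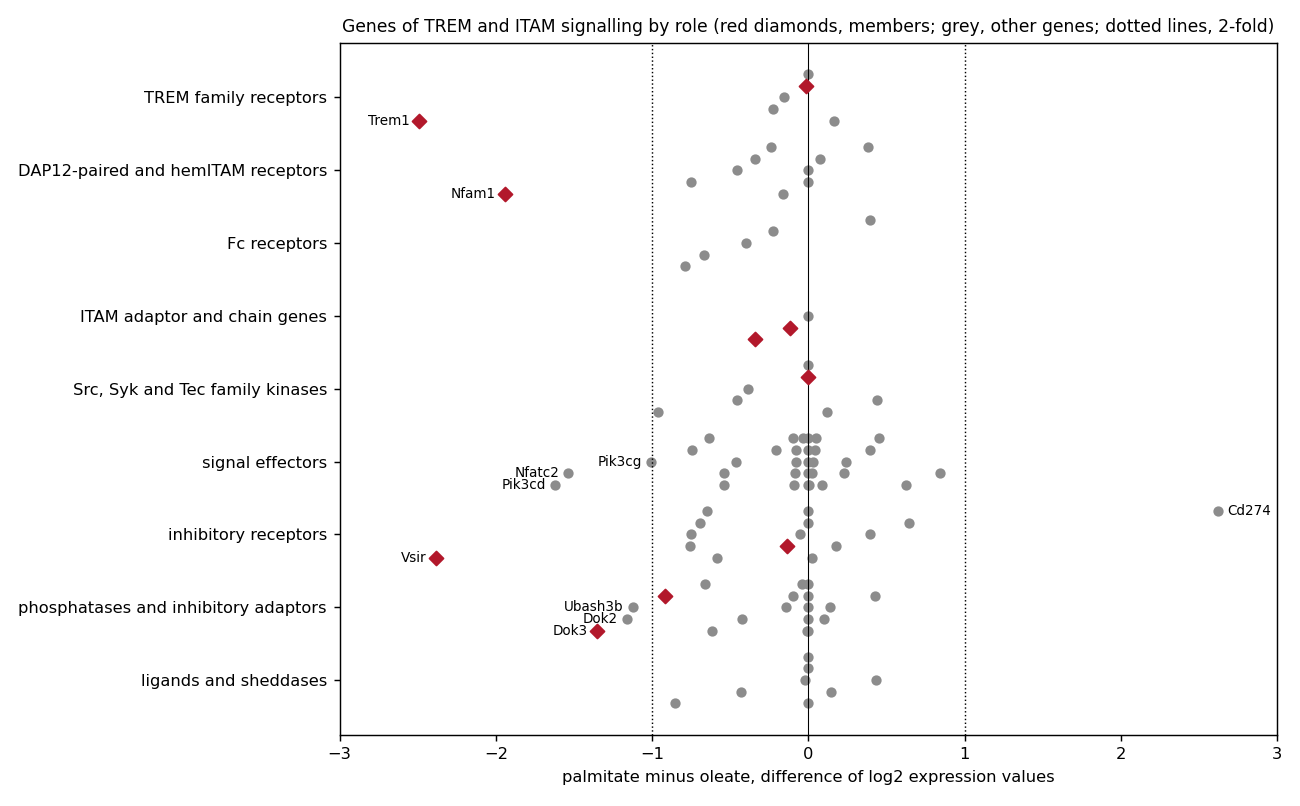
Palmitate minus oleate differences of log2 values (horizontal axis) for the pathway genes past the filter, in rows by role; red diamonds are members, grey points other genes, and the names are those of genes at least 2-fold different (dotted lines). Each gene is 1 point per list, with no error bar because there is 1 array per fatty acid. Trem1, Nfam1, Vsir, Dok3, Dok2, Ubash3b, Pik3cd, Nfatc2 and Pik3cg lie left of the 2-fold line, and Cd274 alone lies right of it.

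Genes with the pattern most like each of the 4 members past 2-fold were found by the distance between mean-centred log2 values over the 3 arrays. Trem1 and Vsir were 0.08 apart, and Trem1 and Nfam1 0.45. With the 10 members and predicted genes left out of the search, nearest to Trem1 were Tifab (distance 0.26), Asb2 (0.27), Mertk (0.28), Tlr8 (0.29) and Lfng (0.34), and the same 5 genes were nearest to Vsir outside the members, led by Asb2 at 0.19. Nearest to Nfam1 were Nbeal2 (0.06), Ccnd3 (0.09), Tgfbi (0.09), Rab3il1 (0.16) and Dusp6 (0.17). Nearest to Dok3 were Soga1 (0.05), Rnf145 (0.05), Irf8 (0.09), Trib1 (0.09) and Tor4a (0.10). With 3 arrays, likeness of pattern is a description of these arrays only.

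Macrophage markers were present, and those of other cells mostly were not. Of 10 macrophage markers 9 passed the filter, and 8 of those 9 were lower with palmitate than with oleate and Cd68 was equal, at a median of -0.46. Over all genes past the filter 36.8% were lower and 1.22% at least 2-fold lower. Of the macrophage markers 2 were at least 2-fold lower, the apoptotic cell receptor gene Mertk at -2.10 and the scavenger receptor gene Marco at -1.14. The lysozyme gene Lyz2 stood at -0.83, and Spi1, the gene of PU.1, at -0.10. The summed linear level of the macrophage list was 15621 with oleate, 14716 with elaidate and 12340 with palmitate. The part of these markers in the member differences was not tested. No mast cell, natural killer, T cell or B cell marker passed the filter; 2 of 7 measured neutrophil, 1 of 6 dendritic cell and 2 of 6 osteoclast markers did. The neutrophil list summed to 117 with oleate, 119 with elaidate and 117 with palmitate. The osteoclast list summed to 457, 407 and 338 on the same arrays. Of its 2 genes past the filter 1 was lower and 1 higher for palmitate minus oleate.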

How the data were processed

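The authors deposited a log2 expression value for each probe set and array, computed with RMA per the submitters' processing notes; for neither RMA's version nor the genome build is a statement given in the sources used here. The method corrects background, aligns the distributions of arrays and summarises probes, and can compress differences of low values. Values were used as deposited. Of 35556 probe sets, 21218 had 1 gene symbol in the platform annotation, 1881 had several and 12457 were unnamed there; only the first kind was used, with the mean where a gene had several. All 10 members matched RefSeq by gene identifier. Arrays have no depth, and their number limits the precision.

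Differences of log2 values were computed between arrays, and at least 2-fold differences were counted over genes whose mean was at or above the median gene. With 1 array per fatty acid no test was possible. Values within 1e-06 were called equal. The members and lists were chosen with earlier results of these data known. Named genes are the members; list genes past 2-fold in any comparison, or else the 2 furthest from 0 for palmitate minus oleate, counted here without the members; and the 5 nearest patterns, leaving out members and predicted genes. The rule covers pathway lists; markers named beside the results were chosen after their values were seen. Other genes of the TREM cluster, Clec4e, Fcgr2b, Fcgrt, Fyn, Gab2, Card9 and Cd33 were added after their values were seen. So were Milr1, Lilrb4a, Ptpn6, Dok1, Apoe and Clu. Listed genes that no single-gene probe set names were not analysed here. Motifs were searched on both strands; the 50 bases after each start in the promoter table were not used. Counting was tested on simulated data. Tools were Python 3.11.15, numpy 2.4.6, pandas 2.3.3, matplotlib 3.10.9 and, for cyclic loess (span 0.7, 3 iterations), limma 3.58.1 in R 4.3.3.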

Additional observations from a re-analysis of the deposited data

How the results depend on the processing

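All 141 recomputed member differences moved by at most 0.04 log2 units. Only centring the arrays on their medians and cyclic loess could move them. Leaving out the filter, a filter at the 75th percentile and the probe set of highest mean cannot change a member difference, because each member has 1 probe set. Members that failed the stricter filter have no value there. Counts depended on the limit and the filter. With a 1.5-fold limit, members lower numbered 1 for elaidate minus oleate and 5 for palmitate minus elaidate. Of all 9410 genes 6 and 417 were lower. Of the 94 other pathway genes 19 were lower for palmitate against oleate and 14 against elaidate, beside 445 and 417 of all genes. Higher ones numbered 2 for elaidate against oleate, 4 for palmitate against oleate and 3 for palmitate against elaidate. Over all genes those counts were 68, 430 and 299. With a 3-fold limit, other pathway genes lower numbered 1 for palmitate against oleate and 0 against elaidate, beside 24 and 15 of all genes. The filter at the 75th percentile kept 7 members, without Trem1, Vsir and Pirb, so 2 were 2-fold lower for palmitate against oleate and 1 against elaidate. Other pathway genes lower numbered 3 and 1. Among all genes that this stricter filter kept, 62 and 43 were lower. Of 129 list medians 8 moved by more than 0.1, each under a changed filter, and without a filter the medians of the Fc receptor, DAP12-paired and kinase lists for palmitate against either other array were 0. No paired analysis was possible because each fatty acid has 1 array.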
